A study of Mus musculus with 12 samples.

Results

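The 9 genes described here, Snhg1, Snhg3, Snhg5, Snhg6, Snhg8, Snhg12, Snhg15, Snhg17 and Gas5, are long noncoding genes that carry small nucleolar RNAs (snoRNAs) in their introns. They were found by mouse symbol and are 9 of the 55487 gene identifiers in the count table. All 9 were among the 16974 genes with enough counts to be tested. Snhg17 was selected on its counts in these same libraries, where its level was higher with regorafenib, so its values with and without that drug are a description and carry no test here. The other 8 belong by name, and the question was whether they follow Snhg17.

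The tumours grew from Sq-1979 cells, a mouse squamous carcinoma line, placed in Matrigel subcutaneously in C3H/HeN males aged 6 weeks. Treatment began on day 20 and gave 4 groups of 3 libraries each: vehicle, regorafenib at 5 mg/kg/day, anti-PD1, and both agents together, called the combination. Regorafenib inhibits several receptor kinases, and anti-PD1 is an antibody against the checkpoint receptor of T cells. The labels give no antibody dose, name daily oral gavage for all 4 treatments and do not state whether each library is a mouse of its own, so p-values measure the spread between these libraries, which may be technical. Polyadenylated RNA was sequenced to 22591835 to 28209036 counts per library.

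A snoRNA host gene is transcribed as 1 precursor whose introns hold snoRNAs. After splicing, the introns are trimmed to release the snoRNAs, which guide 2'-O-methylation (box C/D class) or pseudouridylation (H/ACA class) of ribosomal and other RNAs. The spliced exons of most hosts carry no conserved protein. Several of these RNAs are short-lived, because ribosomes that engage them expose them to nonsense-mediated decay, and many host promoters start in a run of pyrimidines, the terminal oligopyrimidine (TOP) feature known from ribosomal protein genes. Mature snoRNAs have no poly(A) tail, so libraries of polyadenylated RNA are made to measure the host RNA rather than the snoRNAs.

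The cargo of the 4 hosts with the largest response or a call is shown first, because it is what sets these genes apart from other long noncoding genes. In the sequences below, read from GENCODE M21 transcripts on build GRCm38, capitals mark the ACA box near the 3' end of H/ACA snoRNAs, or the C box and the D box (CTGA) of box C/D snoRNAs. Snhg17, at chr2:158353700-158361580 on the minus strand, spans 3 H/ACA snoRNAs. Snhg15 holds Snora9, Snhg6 holds Snord87, and Snhg5 holds Snord50a and Snord50b.
Gm24411 in Snhg17, chr2:158356424-158356554: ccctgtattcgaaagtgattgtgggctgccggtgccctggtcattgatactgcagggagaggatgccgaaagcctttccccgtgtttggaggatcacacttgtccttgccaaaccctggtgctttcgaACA
Gm23925 in Snhg17, chr2:158359798-158359929: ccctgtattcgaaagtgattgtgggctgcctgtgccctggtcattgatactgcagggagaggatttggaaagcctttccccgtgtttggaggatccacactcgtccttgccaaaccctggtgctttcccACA
Gm26003 in Snhg17, chr2:158358360-158358472: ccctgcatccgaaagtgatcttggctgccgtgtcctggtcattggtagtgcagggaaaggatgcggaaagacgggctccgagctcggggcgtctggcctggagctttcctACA
Snora9 in Snhg15, chr11:6528033-6528165: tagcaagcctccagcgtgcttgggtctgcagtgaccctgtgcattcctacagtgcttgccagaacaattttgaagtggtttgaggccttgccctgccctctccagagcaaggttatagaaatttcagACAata
Snord87 in Snhg6, chr1:9942463-9942549: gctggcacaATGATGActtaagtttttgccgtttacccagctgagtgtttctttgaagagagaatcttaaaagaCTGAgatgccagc
Snord50a in Snhg5, chr9:88521529-88521600: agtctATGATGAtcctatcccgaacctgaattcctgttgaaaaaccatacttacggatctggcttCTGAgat
Snord50b in Snhg5, chr9:88521797-88521868: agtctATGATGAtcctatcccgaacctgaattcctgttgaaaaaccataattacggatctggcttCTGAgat

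Among the 3 snoRNAs of Snhg17, Gm24411 and Gm23925 were identical at 93.9% of aligned positions, and Gm26003 matched them at 70.2% and 69.7%. Snord50a and Snord50b were identical at 98.6%. The 9 hosts together hold 33 annotated snoRNA entries, from 1 each in Snhg6, Snhg8 and Snhg15 to 8 in Snhg1 and 10 in Gas5. Of these entries, 30 lie wholly within exons of some annotated host transcript, mostly forms that keep the intron. The 30 entries within host exons were all listed at 0 counts, which says nothing of their level where reads that overlap both genes are not assigned. Of the other 3, the 2 in Snhg3 received 457 counts over 12 libraries, beside 2412 for Snhg3, and Snord87 received 43, beside 6795 for Snhg6. Cargo class did not separate the hosts that passed a test below from the others. Snhg17 and Snhg15 carry H/ACA snoRNAs, as do Snhg3 and Snhg8, while Snhg6, Snhg5, Gas5 and Snhg1 carry box C/D snoRNAs.

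Start regions were read from RefSeq (GRCm38.p6), which had 10 entries for 8 of the 9 hosts. Each sequence below runs from 40 bases before the annotated start to 30 after it, with the longest run of C or T near the start in capitals. They are shown because the hosts that moved most and least with regorafenib both appear among them.
Snhg17, upstream start, chr2:158361493-158361562, minus strand: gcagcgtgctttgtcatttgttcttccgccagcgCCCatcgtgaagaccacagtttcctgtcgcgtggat
Snhg17, downstream start, chr2:158361480-158361549, minus strand: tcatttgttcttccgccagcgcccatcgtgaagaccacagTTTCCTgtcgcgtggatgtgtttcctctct
Snhg15, chr11:6528731-6528800, minus strand: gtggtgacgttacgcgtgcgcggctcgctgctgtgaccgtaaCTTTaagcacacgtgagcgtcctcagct
Snhg5, chr9:88522868-88522937, minus strand: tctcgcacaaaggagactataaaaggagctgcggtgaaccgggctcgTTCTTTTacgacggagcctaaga
Snhg1, chr19:8723447-8723516, plus strand: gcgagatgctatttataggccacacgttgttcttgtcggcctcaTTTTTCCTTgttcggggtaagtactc

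A run of at least 6 pyrimidines overlapping positions -5 to 10 (the annotated start is position 1) occurred in 6 of the 10 host entries and in 24.4% of the 32851 promoters. The longest runs, of 9 bases, were in Snhg1 and Snhg12, and the run in Snhg15 had 4. Within the full 300 bases and on both strands, TATAAA occurred in 4 of 10 host entries (13.6% of all promoters) and GGGCGG in 7 of 10 (35.7%). The letters CACGTG occurred in 1 of 10, that of Snhg15 (7.15%), and TGATGNAA in 0 of 10 (3.97%). These matches describe letters in a window and were not related to binding.

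Levels are CPM, counts scaled to a common library size and normalised with TMM factors. Between genes they are compared as CPM per kilobase of exon, with all annotated transcripts merged, which lowers genes with retained introns such as Snhg17 (7.05 kb). In vehicle tumours the order per kilobase was Gas5 (41.8 ± 1.61, SD, n = 3), Snhg8 (38.4 ± 1.5), Snhg1 (34.3 ± 1.09), Snhg5 (23.1 ± 0.56), Snhg6 (18.03 ± 1.31), Snhg15 (15.7 ± 1.62), Snhg12 (15.1 ± 0.49), Snhg3 (8.04 ± 0.70) and Snhg17 (6.49 ± 0.29). Snhg6, Snhg15 and Snhg12 were neighbours whose mean ± SD ranges overlapped with the next in order. In the combination, Snhg17 reached 13.04 ± 1.56 CPM per kilobase and stood above Snhg3 at 9.22 ± 1.47.

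Snhg17 had the largest difference of the 9. Its level was 43.5, 46.2 and 47.6 CPM in vehicle and 49.0, 40.7 and 44.2 CPM with anti-PD1. With regorafenib it was 66.7, 73.1 and 77.8 CPM, and in the combination 98.5, 98.2 and 79.3 CPM. All 6 libraries with the drug lay above all 6 without it, with no overlap, and the combination lay above regorafenib alone. Averaged over both backgrounds (vehicle and anti-PD1), the log2 fold change with regorafenib was 0.85 ± 0.07 (SE), or 1.81-fold. This is the contrast that brought Snhg17 into the group. Leaving out each of the 12 libraries in turn gave 0.82 to 0.90.

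**Figure D1:**
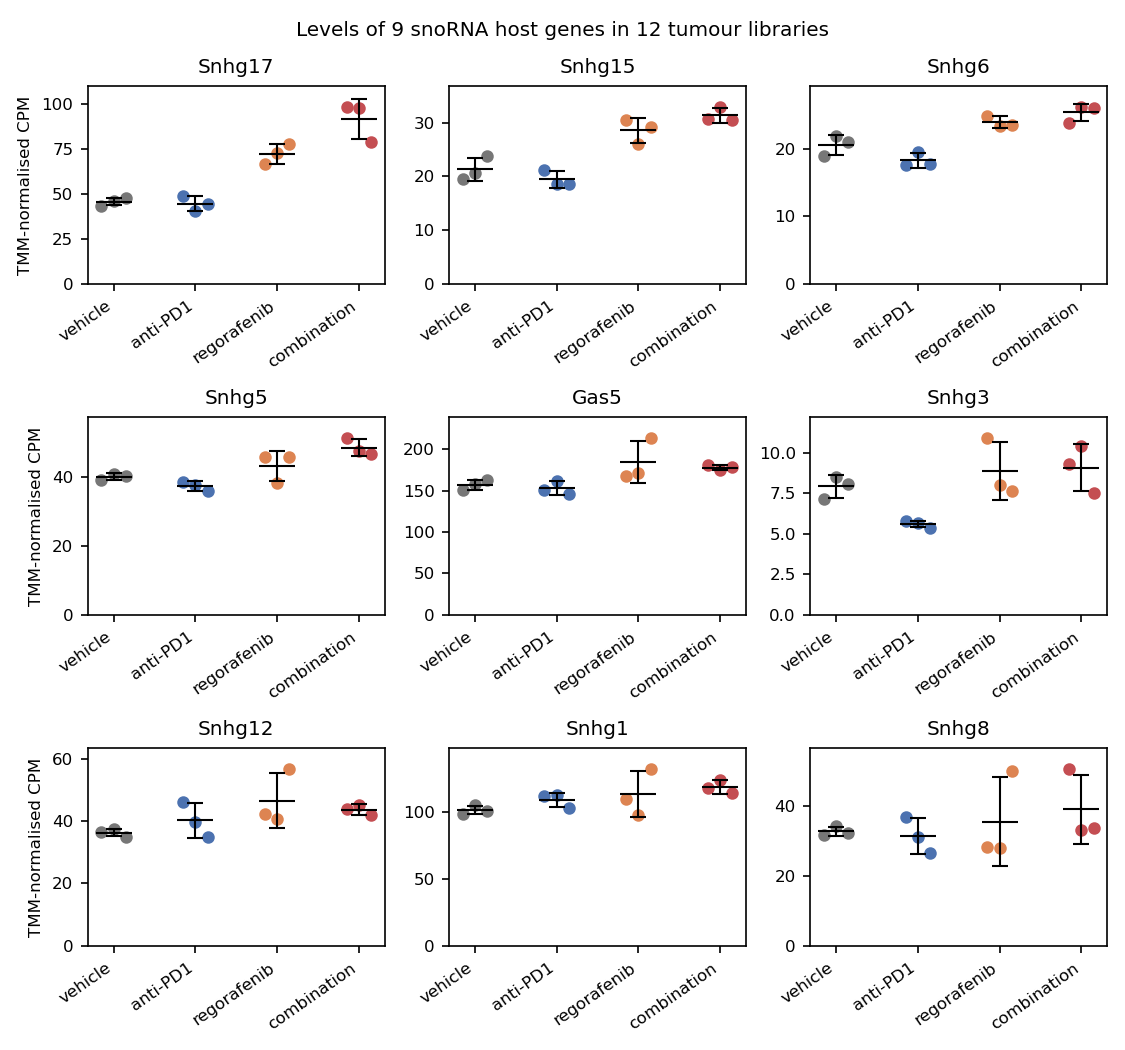
Level of each host gene (vertical axis, TMM-normalised CPM from 0) in the 4 treatment groups (horizontal axis). Points are libraries, long bars are means of 3 and whiskers are SD. Snhg17, Snhg15, Snhg6 and Gas5 have all 6 regorafenib-treated libraries above the 6 others, and Snhg8 has 2 high libraries, regorafenib 3 and combination 1.

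Of the other 8 hosts, Snhg15, Snhg6 and Snhg5 rose with regorafenib over both backgrounds, which is 37.5% of them. Of all genes tested, 6.16% rose and 3.32% fell by the same test (edgeR quasi-likelihood, Benjamini-Hochberg adjusted p under 0.05). All 8 had a positive log2 fold change, as did 50.5% of all genes. So did 913 of 1240 long noncoding genes tested, and 146 of the 187 with a mean of at least 5 CPM, hosts included. The median of the 8 was 0.24, against 0.00 over all genes tested. None had a change as large as that of Snhg17, which was selected for its rise in this contrast. In bulk tumour RNA, more RNA per cell and more cells that make it cannot be told apart.

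Snhg15, host of Snora9 and a short-lived RNA, came nearest to Snhg17. It was at 19.4, 20.7 and 23.7 CPM in vehicle and 21.2, 18.5 and 18.6 CPM with anti-PD1. With regorafenib it was at 30.4, 25.9 and 29.2 CPM, and in the combination at 30.7, 32.9 and 30.5 CPM. The lowest of the 6 treated libraries, at 25.9 CPM, stood above the highest of the others, at 23.7 CPM. The log2 fold change was 0.56 ± 0.07 (1.47-fold, adjusted p = 0.00453), and it passed with each library left out.

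Snhg6, host of Snord87, was at 19.0, 21.9 and 21.1 CPM in vehicle and 17.6, 19.6 and 17.8 CPM with anti-PD1. It was at 24.99, 23.4 and 23.6 CPM with regorafenib and 24.0, 26.2 and 26.2 CPM in the combination. Again no treated library overlapped with an untreated one, although the step was smaller. The log2 fold change was 0.34 ± 0.06 (1.27-fold, adjusted p = 0.0118), and it passed in 12 of 12 fits with 1 library left out.

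Snhg5, host of the U50 snoRNAs Snord50a and Snord50b, was at 38.9, 40.8 and 40.2 CPM in vehicle and 38.5, 37.7 and 35.8 CPM with anti-PD1. It was at 45.5, 38.2 and 45.7 CPM with regorafenib and 51.1, 47.5 and 46.6 CPM in the combination. Of the 6 treated libraries, regorafenib 2 alone lay within the untreated range. The log2 fold change was 0.24 ± 0.06 (1.18-fold, adjusted p = 0.0280). The call depended on single libraries: it was lost at adjusted p = 0.0597 to 0.0798 without vehicle 1, 2 or 3, anti-PD1 2 or 3, regorafenib 3, or combination 1 or 2.

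Gas5, the growth arrest-specific transcript, whose RNA is known to accumulate when translation or growth slows, was at 150.8, 158.0 and 162.9 CPM in vehicle and 150.4, 162.0 and 146.3 CPM with anti-PD1. It was at 168.2, 170.9 and 213.3 CPM with regorafenib and 180.7, 174.3 and 178.0 CPM in the combination. The 6 treated libraries lay above the 6 others. Of the 8 hosts other than Snhg17, Gas5, Snhg15 and Snhg6 had that separation, which 2.87% of all genes tested showed. So did 75 of 1240 long noncoding genes, and 24 of the 187 with a mean of at least 5 CPM, hosts included. The log2 fold change of Gas5, 0.22 ± 0.07, did not pass (1.17-fold, adjusted p = 0.0579). It passed without regorafenib 1 (adjusted p = 0.0442) or regorafenib 2 (0.0432), and with DESeq2 (0.0142).

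Snhg3, host of Snora73a and Snora73b (the U17 snoRNAs, which act in the cleavage of the ribosomal RNA precursor), was the least abundant by CPM, with 136 to 299 counts per library. It was at 7.17, 8.52 and 8.10 CPM in vehicle, 5.77, 5.68 and 5.39 CPM with anti-PD1, 10.9, 8.05 and 7.64 CPM with regorafenib, and 9.32, 10.4 and 7.53 CPM in the combination. Only the anti-PD1 libraries stood apart, below all 9 others. The average log2 fold change with regorafenib was 0.43 ± 0.12 and did not pass (adjusted p = 0.0529), though it did without combination 3 (0.0377) and with DESeq2 (0.0139). The exons of Snhg3 share 135 bases with Rcc1, the exchange factor of the GTPase Ran, on the same strand. The antisense gene Gm17300, which shares 705 bases with Snhg3, had 6 counts in all. Rcc1 differed by -0.06 on the log2 scale (adjusted p = 0.842).

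Snhg12, Snhg1 and Snhg8 did not pass. Snhg12, which holds 5 snoRNA entries of both classes, ranged from 34.9 to 46.2 CPM without regorafenib and from 40.6 to 56.7 CPM with it (log2 fold change 0.24 ± 0.09, adjusted p = 0.122). Snhg1, host of a tandem set of box C/D snoRNAs, ranged from 99.2 to 112.8 and from 98.2 to 132.4 CPM (0.14 ± 0.07, adjusted p = 0.216). Both had overlapping ranges.

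Snhg8, host of Snora24, showed the widest scatter. It was at 31.8, 34.2 and 32.4 CPM in vehicle, 36.8, 31.1 and 26.6 CPM with anti-PD1, 28.4, 28.1 and 50.1 CPM with regorafenib, and 50.6, 33.2 and 33.6 CPM in the combination. Regorafenib 3 and combination 1 were high, and the remaining 4 treated libraries lay within the range of the untreated ones. The log2 fold change was 0.21 ± 0.17 (adjusted p = 0.442), and 0.05 without regorafenib 3. The same 2 libraries had the highest summed level of cytosolic ribosomal protein genes, 84182 and 76184 CPM against 57800 to 73284 CPM in the other 10. They also had the lowest summed level of 4 Y-linked genes, 18.1 and 18.3 CPM against 21.3 to 42.3 CPM. Regorafenib 3 was likewise the highest library for Snhg12, Snhg1 and Gas5. The part of tumour composition in these levels was not tested.

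The effect of regorafenib was then read within each background. Against vehicle, the drug gave positive log2 fold changes for all 9 hosts, with a median of 0.21, and 0 of the other 8 passed. In that comparison 0.0% of all genes rose and 0.00589% fell. At an unadjusted p under 0.05 there were 4 of the 8, beside 2398 of all genes (14.1%), and DESeq2 called 1, Snhg15, beside 425 of all genes. Snhg15 had 0.42 ± 0.10 (adjusted p = 0.165), Snhg12 0.36 ± 0.13 (0.267), Gas5 0.23 ± 0.09 (0.309) and Snhg6 0.21 ± 0.09 (0.299). These 4 of the 8 had all 3 regorafenib libraries above all 3 vehicle libraries, which 10.6% of genes did. None of the 8 had all 3 below, against 10.2% of genes. Snhg17 had 0.66 ± 0.10, as a description.

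When regorafenib was added to anti-PD1, Snhg15, Snhg6 and Snhg5 rose, against 1.7% of all genes that rose and 0.224% that fell. Shares of long noncoding genes, given below for the average effect, were not counted within either background. The log2 fold change of Snhg15 was 0.69 ± 0.10 (adjusted p = 0.0159), Snhg6 0.47 ± 0.09 (0.0274) and Snhg5 0.37 ± 0.08 (0.0444). Snhg3 had 0.69 ± 0.17 and did not pass (0.0695). Snhg8 had 0.31, Gas5 0.22, Snhg1 0.12 and Snhg12 0.12, with adjusted p of 0.239 to 0.676, and Snhg17 had 1.04 ± 0.10 (no test). The 3 libraries of the combination lay above the 3 of anti-PD1 in 6 of the other 8 hosts, as they did in 13.0% of all genes. They lay below in none of the 8 and in 9.09% of genes.

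These calls were less firm than those of the average effect. With 1 library left out, Snhg15 was lost without anti-PD1 2 or 3 or combination 1 or 2 (adjusted p = 0.0736 to 0.121). Snhg6 was lost without any 1 of the vehicle or anti-PD1 libraries or without combination 1 or 2 (0.0521 to 0.144). Snhg5 passed only without regorafenib 1 or regorafenib 2, and otherwise had 0.0530 to 0.201. With only the 6 libraries of the 2 groups in the fit, the log2 fold changes were 0.68, 0.47 and 0.37, and none of the 3 passed (each adjusted p = 0.157), nor did any of the 16347 genes then tested.

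**Figure D2:**
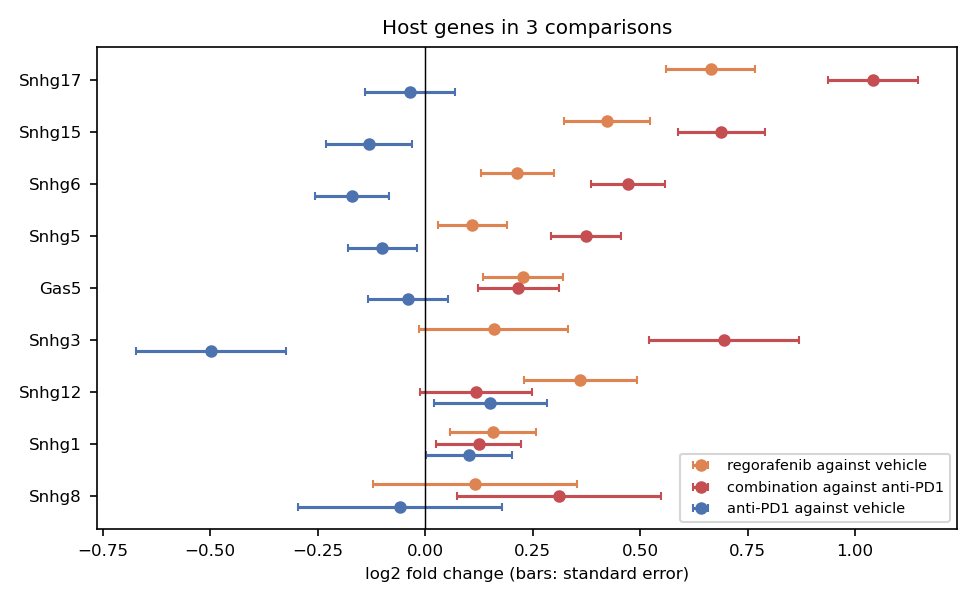
Log2 fold change (horizontal axis) of each host gene (vertical axis) for regorafenib against vehicle, the combination against anti-PD1, and anti-PD1 against vehicle. Points are edgeR estimates and bars their standard errors. All 9 points of both regorafenib comparisons lie above 0, and Snhg3 has the lowest point for anti-PD1 against vehicle, at -0.50.

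Anti-PD1 alone changed none of the 9 past the threshold, and 0.0% of all genes passed in either direction. At an unadjusted p under 0.05 edgeR gave 878 genes in all, and DESeq2 called 3 genes, none of them a host. In this comparison DESeq2 gave an adjusted p to only 7100 genes, and to none of Snhg3, Snhg6 and Snhg15. Snhg3 was the 1 host with an unadjusted p under 0.05, and its log2 fold change was -0.50 ± 0.17 (adjusted p = 0.865). Snhg3 and Snhg5 had all 3 anti-PD1 libraries below all 3 vehicle libraries, as did 9.08% of genes, and no host had them all above (7.93% of genes). Snhg17 did not pass, at -0.04 ± 0.10 (adjusted p = 0.954).

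The combination against regorafenib alone gave 0 calls among hosts and 0.0% among all genes, with 925 genes at an unadjusted p under 0.05 and 4 called by DESeq2, none a host. Snhg17 had the largest value of the 9, at 0.34 ± 0.10 (unadjusted p = 0.00714, adjusted p = 0.856), with all 3 combination libraries above the 3 of regorafenib. Snhg15 and Snhg5 were the other hosts without overlap, at 0.14 and 0.16, and 4.94% of genes showed this. No host had the combination below (2.83% of genes).

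Whether regorafenib acted differently in the 2 backgrounds was tested by the interaction. It passed for 0 hosts and for 0.0% of genes, with 449 genes at an unadjusted p under 0.05 and 0 called by DESeq2. The estimate was 0.38 ± 0.15 for Snhg17, 0.26 ± 0.11 for Snhg5 and 0.53 ± 0.25 for Snhg3. A different response of the hosts with and without anti-PD1 was therefore not shown, although 3 of them were called in 1 background and none of the 8 in the other.

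The share of hosts that rose was read beside the class they belong to. Of 1240 long noncoding genes tested, 12.8% rose and 0.161% fell with regorafenib, and their median log2 fold change was 0.30, above the 0.24 of the 9 hosts. Of the 187 long noncoding genes with a mean of at least 5 CPM, hosts included, 27.3% rose and 0.535% fell, with a median of 0.25. The long noncoding class follows the GENCODE M21 biotype. It takes in some entries with symbols of protein-coding genes, such as Cct6a, Ifi30 and C4a. Of 14198 protein-coding genes, 5.37% rose and 3.87% fell, with a median of -0.01. The hosts were thus near the median of abundant long noncoding genes and above that of protein-coding genes.

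Some other noncoding snoRNA hosts rose as well. Of 12 further hosts listed by symbol, 7 were tested, and Snhg16 was matched by its RefSeq synonym 1810032O08Rik. Snhg4 and Snhg7 were not matched to an identifier. Of these 7, 3 (42.9%) rose and 0 fell, beside 12.8% of all long noncoding genes tested and 27.3% of the 187 abundant ones that rose. Snhg20 differed by 0.71 ± 0.11 on the log2 scale (adjusted p = 0.00751), Dancr 0.52 ± 0.09 (0.0130) and Snhg16 0.35 ± 0.10 (0.0449). The first 2 passed with each library left out, and Snhg16 in 4 of 12 such fits. Rian, an imprinted host, had the largest negative value, -1.47 ± 0.46, and did not pass (0.0681). It passed as lower without anti-PD1 1 (0.0319) or regorafenib 2 (0.0233), with DESeq2 (0.00964) and with the Y-linked covariate (0.0138). Zfas1, Snhg18 and Snhg10 did not pass either. Snhg9, Snhg11 and Snhg14 had 44, 5 and 24 counts in all and were not tested.

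Protein-coding genes with an annotated snoRNA within their span on the same strand did not share the shift. Of 238 tested, 18 rose and 5 fell (7.56% and 2.10%), with a median log2 fold change of 0.01. The count that rose was 6 to 10 without vehicle 1, 2 or 3, anti-PD1 2 or 3, regorafenib 3, or combination 1 or 2, and the count that fell ranged from 2 to 10 with 1 library left out. The 4 with the smallest p were 2410002F23Rik (0.57 ± 0.06, adjusted p = 0.00287), Ppan, a factor of large ribosomal subunit assembly (0.40 ± 0.06, 0.00733), Prpf39, a splicing factor (0.54 ± 0.09, 0.00848), and Nup210l, a nucleoporin-like gene (1.07 ± 0.19, 0.0124).

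Genes for proteins that act with snoRNAs were read as RNA. Their median log2 fold change with regorafenib was 0.01 for core proteins and 0.05 for assembly factors. Of the 8 core proteins of snoRNA particles 0 passed in either direction (2 at an unadjusted p under 0.05, 1 by DESeq2). Over all genes, 27.95% had an unadjusted p under 0.05 in this comparison and DESeq2 called 16.5%. Nop56, a box C/D core protein, had 0.29 ± 0.09 (adjusted p = 0.0706), Nop10 of the H/ACA particle -0.15 ± 0.06 (0.123), and Fbl, the methyltransferase fibrillarin, 0.14 ± 0.09 (0.309). Of 12 assembly factors 0 passed (0 at an unadjusted p under 0.05, 0 by DESeq2), with Pih1d1 at -0.15, Naf1 at 0.15 and Tgs1 at 0.07.

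Nonsense-mediated decay removes several host RNAs, so its 15 factors were listed too. Of these 0 passed (5 at an unadjusted p under 0.05, and 4 by DESeq2, of which 3 were higher), beside the same 27.95% and 16.5% of all genes. Upf3b, which links the exon junction complex to decay, had 0.25 ± 0.07 (adjusted p = 0.0501) and the helicase Upf1 0.19 ± 0.06 (0.0699). Upf3b passed in 3 of 12 fits with 1 library left out.

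Of 18 ribosome biogenesis genes 1 rose and 0 fell. It was Polr1b, a subunit of RNA polymerase I, with 0.37 ± 0.06 (adjusted p = 0.00823). Polr1a had 0.17 ± 0.06 (0.115) and Utp20, of the small subunit processome, 0.20 ± 0.08 (0.128). Of 81 cytosolic ribosomal protein genes tested 1 rose and 0 fell, and their median was 0.01. That gene, Rps10, had 0.77 ± 0.15 (adjusted p = 0.0146) but only 4.01 ± 0.65 CPM in vehicle. Reads of near-identical copies of ribosomal protein genes may be split between entries, so its value is uncertain. Rpl39l had -1.26 and Rpl7l1 -0.15, neither past the threshold. The list was drawn by symbol (Rpl or Rps and a number), so it takes in like-named genes such as Rpl7l1.

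**Figure D3:**
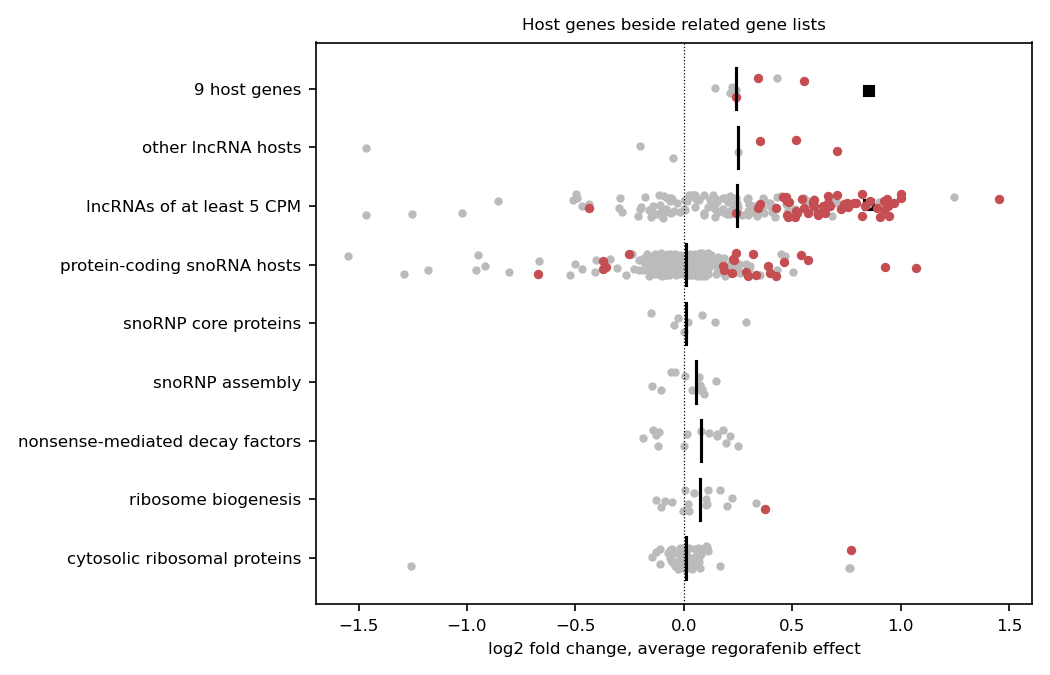
Log2 fold change with regorafenib averaged over both backgrounds (horizontal axis) for each tested gene of 9 lists (vertical axis). Grey points did not pass, red points passed at an adjusted p under 0.05, black squares are Snhg17 and the vertical line is the median. The medians of the noncoding lists are near 0.25 and those of the protein-coding lists between 0.01 and 0.08.

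Snhg17 was also compared with its neighbours on chromosome 2. The nearest tested protein-coding genes were Lbp, 20848 bases away, which encodes the lipopolysaccharide binding protein (0.39 ± 0.19, adjusted p = 0.198), and Ralgapb, 48268 bases away, a subunit of the Ral GTPase activating complex (-0.07 ± 0.05, adjusted p = 0.386). Neither passed. Snhg11, 14058 bases away, had too few counts.

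Profiles over the 12 libraries were compared as log2 CPM centred on each gene's own mean. The search covered 14233 tested genes with an official symbol, leaving out Gm, Rik and clone names, which many long noncoding genes carry. The 3 that differed least from Snhg17 were Aoc2, an amine oxidase gene, Col11a2, a collagen chain gene, and Mapk8ip3, a scaffold gene of JNK signalling. Their root mean square differences were 0.09, 0.10 and 0.10, against a median of 0.52 over the 14233 genes. These 3 genes were picked for likeness in these same libraries, so their shared pattern follows from the choice. Aoc2 was at 9.99 ± 0.79 CPM in vehicle, 10.8 ± 1.07 with anti-PD1, 17.1 ± 2.03 with regorafenib and 22.9 ± 2.41 in the combination. Among the other 8 hosts, Snhg15 was the most alike at rank 71 of these 14233 genes, and Snhg8 the least at rank 2131.

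**Figure D4:**
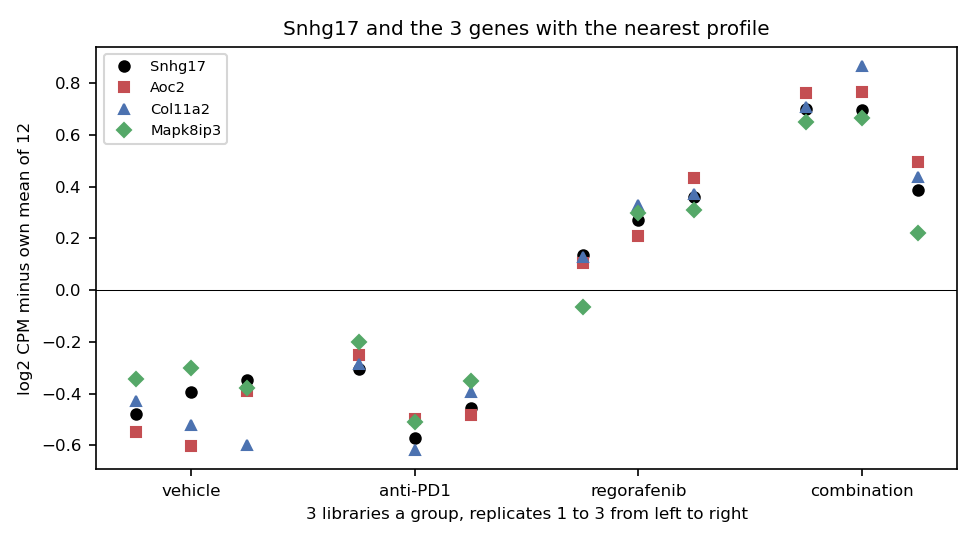
Log2 CPM minus the gene's own mean of 12 libraries (vertical axis) in each library, by group (horizontal axis). Shown are Snhg17 and the 3 genes with the nearest profile among tested genes with an official symbol. Points are libraries. In all 4 genes the combination 3 library lies below combination 1 and 2, and the vehicle and anti-PD1 libraries lie below 0. The 3 genes were picked for likeness to Snhg17 in these libraries, so the shared pattern follows from the choice.

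Of 40 markers of tumour and other cells tested in the average effect, 0 rose and 4 fell (10%, against 3.32% of all genes). The summed level of 5 fibroblast genes was 17617 to 22584 CPM in vehicle, 4473 to 23239 with anti-PD1, 3632 to 21276 with regorafenib and 3042 to 8796 in the combination, and 1 of the 5, Lum, fell. Of 5 endothelial genes 2 fell (sums of 81.0 to 96.5, 79.4 to 108, 62.9 to 84.3 and 47.6 to 86.2 CPM in the same order), and of 6 epithelial genes 1, Krt14, fell (13713 to 16055, 10765 to 14038, 11174 to 12904 and 10435 to 12308 CPM). Of 24 leukocyte, macrophage, neutrophil, muscle, fat, dividing-cell and Y-linked markers tested with edgeR, 0 passed, with 4 at an unadjusted p under 0.05 and 3 called by DESeq2. Those 3 were the neutrophil markers S100a8, S100a9 and Cxcr2, whose sum was 2.07 to 6.00 CPM in vehicle, 1.65 to 6.75 with anti-PD1, 3.54 to 15.1 with regorafenib and 10.8 to 18.8 in the combination. No marker was at 0 in every library. The part of these differences in the host gene levels was not tested. With the Y-linked level as a covariate, 3390 of all genes passed in the average effect, against 1610 without it. Snhg15, Snhg6 and Snhg5 were among them, as were Snhg3, Gas5 and Snhg12.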

How the data were processed

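RNA of 12 tumour samples was measured as raw counts of reads per gene, in a single table the authors deposited with 1 column per sample. Reads were trimmed with cutadapt 2.4 and aligned with STAR 2.7.2a to GRCm38, per the submitters' processing notes, and libraries were stranded, per the labels. How reads were counted, with which strand option and against which annotation release, is not given in the sources used here. Of 55487 identifiers, 55227 matched GENCODE M21 without version. Low counts were filtered with filterByExpr (minimum 10, total 15). One edgeR 4.0.16 quasi-likelihood fit in R 4.3.3 of 4 group means with TMM factors (8 residual degrees of freedom) gave 6 comparisons, two-sided, with Benjamini-Hochberg adjustment over 16974 genes and a threshold of 0.05. The procedure was tested on simulated data. Alternatives were DESeq2 1.42.0, other factors, no filter, the replicate number, a Y-linked covariate, only the libraries compared, and each library left out. The members, lists and tests were chosen with earlier results of these data known. Genes named are all members, and up to 3 per list and 4 protein-coding hosts with the smallest p in the average regorafenib effect. Also named are the 3 with an official symbol most like Snhg17, genes whose exons overlap a member's, and the neighbours of Snhg17. Genes named beside them were chosen after their values were seen. The long noncoding class of at least 5 CPM was also added then. One gene that the naming rule picked is not reported here.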

Additional observations from a re-analysis of the deposited data

How the results depend on the processing

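Main counts of genes past the threshold were 1610 for the average regorafenib effect, 1 for regorafenib against vehicle, 326 for the combination against anti-PD1 and 0 for the remaining 3 comparisons. DESeq2 gave 2808, 425 and 1194 for the first 3, 3 for anti-PD1 against vehicle and 4 for the combination against regorafenib. No filter gave 959 and 6 for the first 2, and the Y-linked covariate 3390, 287 and 812. With only the 6 samples compared, the counts were 0 for regorafenib against vehicle, 0 for the combination against anti-PD1 and 1 for the combination against regorafenib. With 1 library left out they ranged from 460 to 2048, from 0 to 4 and from 0 to 432. The number of the other 8 hosts past the threshold in the average effect, 3, was 5 with DESeq2, 6 with the Y-linked covariate, 4 with library totals only, 2 with no filter, 2 with the replicate block and 2 to 4 with 1 library left out. No filter ended the call of Snhg5 in the average effect (adjusted p = 0.0687) and those of Snhg5 (0.0910) and Snhg6 (0.0682) in the combination against anti-PD1, where RLE factors also ended that of Snhg5 (0.0501). The cause was not tested.

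Replicate numbers were tried as a block. Deviations of same-numbered samples correlated at -0.657 to 0.63 over 18 pairs of samples from different groups, with 2 pairs over 0.1. Pairs with different numbers ranged from -0.499 to 0.531. A pairing by number was thus not shown, and deviations within groups of 3 cannot exclude one. With the replicate block, 504 genes passed in the average effect, 0 in regorafenib against vehicle and 0 in the combination against anti-PD1, and Snhg5 did not pass in the average effect (adjusted p = 0.0682). In the combination against anti-PD1 the block ended the calls of Snhg15 (0.0755), Snhg6 (0.0987) and Snhg5 (0.122).

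Signs turned only for values that did not pass. Gas5 in the interaction was 0.0123 with library totals only. With 1 library left out, the combination against regorafenib ranged from -0.12 to 0.0526 for Gas5, -0.20 to 0.0606 for Snhg12, -0.0446 to 0.18 for Snhg1, -0.0932 to 0.21 for Snhg3 and -0.10 to 0.45 for Snhg8. The interaction ranged from -0.0835 to 0.0905 for Gas5, -0.15 to 0.0732 for Snhg1 and -0.0471 to 0.51 for Snhg8. Anti-PD1 against vehicle ranged from -0.12 to 0.0332 for Snhg17 and -0.20 to 0.0597 for Snhg8, and regorafenib against vehicle from -0.0175 to 0.27 for Snhg3 and -0.21 to 0.27 for Snhg8. Depth limits Snhg3 most, with as few as 136 counts in a library.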

Other observations

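GENCODE M21 places a snoRNA inside 51 further genes annotated as noncoding, a list drawn up after values had been seen. Of these 18 were tested, and 4 rose (22.2%) and 0 fell with regorafenib averaged over both backgrounds. By the same test 6.16% of all genes rose. The share was 12.8% for long noncoding genes and 27.3% for the 187 abundant long noncoding genes described above, so 22.2% lay between these 2 shares. AC121821.1 had a log2 fold change of 0.82 ± 0.12 (edgeR adjusted p = 0.00581), Gm15832 1.01 ± 0.21 (0.0175), 2700038G22Rik 0.65 ± 0.14 (0.0235) and 2900076A07Rik 0.63 ± 0.14 (0.0237). Of these, AC121821.1 passed with each library left out, Gm15832 in 9 of 12 such fits, and the others in 6 of 12. The median of the 18 was 0.27, beside 0.30 for all long noncoding genes tested.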
